A study of Mus musculus with 8 samples.

Results

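The cell-surface mucins examined here were the 6 genes Muc1, Muc4, Muc13, Muc15, Muc16 and Muc20, chosen by name as mucins of the apical surface of epithelium. They were the rows of the count table whose gene identifier maps to these symbols, 6 of 52325 genes, and all 6 had enough counts to be tested. The libraries were made from endometrium cut out of frozen uterine sections by laser capture, with 4 libraries of wild-type (WT) mice and 4 of Thra1PV/+ mice. Thra1PV/+ mice carry the dominant-negative PV mutation in 1 allele of Thra, the gene of thyroid hormone receptor alpha 1, in all cells and not only in the uterus. Both genotypes were females in metestrus, the stage after ovulation, and no hormone treatment is given for these libraries. The ages of these mice and their strain are not given in the sources used here. The study asked how the mutant receptor changes gene expression in the endometrium.

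Cell-surface mucins are long glycoproteins anchored in the apical membrane of epithelial cells. Their extracellular parts carry dense O-linked sugar chains that hydrate and cover the surface, and the extracellular part can be shed by proteases. In the uterus, MUC1 on the luminal epithelium is known as a barrier to attachment of the embryo, and in mice it declines before implantation under progesterone. MUC4 can bind the receptor ERBB2, MUC13 is abundant in gut epithelium, MUC16 is the CA125 antigen and binds mesothelin, and MUC20 is known as a partner of the receptor MET. MUC15 is a smaller member of the group.

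In the GENCODE M21 annotation of GRCm38, 3 of the 6 genes lie on chromosome 16. Muc4 (ENSMUSG00000079620.13, 32735886 to 32782391, plus strand) and Muc20 (ENSMUSG00000035638.14, 32777419 to 32797435, minus strand) overlap at their ends over 4973 bases, of which 627 are exonic in both. Muc13 (ENSMUSG00000022824.12, 33794037 to 33819934, plus strand) lies 996601 bases beyond Muc20, with 12 protein-coding genes between them. Muc1 (ENSMUSG00000042784.9) is a compact gene of 4325 bases on chromosome 3 (89229057 to 89233381, plus strand). Muc15 (ENSMUSG00000050808.13) lies on chromosome 2 (110721340 to 110739527, plus strand), across from Ano3 on the other strand. Muc16 (ENSMUSG00000109564.1) is the longest, with 78 exons over 179076 bases of chromosome 9 (18495455 to 18674530, minus strand). The coding part of the longest annotated transcript runs from 993 bases in Muc15 to 25434 bases in Muc16.

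The bases upstream of the start were searched for 4 short motifs on both strands in the RefSeq promoter table (GRCm38.p6), which holds 5 of the 6 members and no entry for Muc15. The motifs were AGGTCA, the core bound by many nuclear receptors including thyroid hormone receptors, GGGCGG, the GC box of SP and KLF factors, CACCC, another box of KLF factors, and TGTTCT, the core bound by progesterone and glucocorticoid receptors. The sequences shown are the 250 upstream bases of Muc13, the abundant member with no overlap between genotypes, and of Muc1, Muc4 and Muc20, the members whose levels followed each other between libraries. They are read in the direction of transcription, with every base of a motif match in capitals.
Muc13 upstream, chr16:33793787-33794036 (plus strand): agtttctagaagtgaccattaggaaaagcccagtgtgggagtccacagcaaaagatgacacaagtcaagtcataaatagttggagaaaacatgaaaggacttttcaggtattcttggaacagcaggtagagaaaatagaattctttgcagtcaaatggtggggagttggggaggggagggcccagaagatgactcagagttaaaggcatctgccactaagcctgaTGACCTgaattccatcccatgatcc
Muc1 upstream, chr3:89228806-89229055 (plus strand): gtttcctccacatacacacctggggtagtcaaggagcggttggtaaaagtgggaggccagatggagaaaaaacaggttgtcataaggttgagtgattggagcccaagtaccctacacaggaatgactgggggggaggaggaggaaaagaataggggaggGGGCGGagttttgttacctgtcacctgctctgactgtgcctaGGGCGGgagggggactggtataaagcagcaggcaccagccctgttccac
Muc4 upstream, chr16:32735636-32735885 (plus strand): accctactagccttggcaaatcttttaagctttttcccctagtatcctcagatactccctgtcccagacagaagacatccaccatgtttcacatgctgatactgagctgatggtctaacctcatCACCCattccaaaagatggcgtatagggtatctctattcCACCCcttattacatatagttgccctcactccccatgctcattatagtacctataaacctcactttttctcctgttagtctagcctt
Muc20 upstream, chr16:32797436-32797685 (minus strand): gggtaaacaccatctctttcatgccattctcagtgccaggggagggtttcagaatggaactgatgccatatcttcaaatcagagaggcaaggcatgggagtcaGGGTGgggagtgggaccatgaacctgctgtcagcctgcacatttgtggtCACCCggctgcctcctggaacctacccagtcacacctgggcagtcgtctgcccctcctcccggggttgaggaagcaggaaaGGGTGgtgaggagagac
Muc13 held 1 AGGTCA match, on the other strand and starting 25 bases before the transcript start, and AGGTCA occurs in 14% of the 32851 promoters of the table. A second Muc13 entry further downstream held 2 more matches of it, but 122 of its 250 bases lie in annotated Muc13 exons, and it is not shown. Muc1 held 2 GC boxes, a motif found in 32.7% of all promoters. Muc4 held 2 CACCC matches and Muc20 held 3, a motif found in 52.0% of promoters, and no motif was common to Muc1, Muc4 and Muc20. Muc16 held 1 CACCC match and 1 TGTTCT match, the latter found in 16.1% of promoters. A match of these letters describes the sequence and does not show binding.

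Library totals ranged from 48791602 to 59818887 estimated counts. Levels are given as CPM, counts scaled to a common library size after TMM normalization, or as log2 CPM with a prior count of 2. Simple epithelium markers were abundant in all 8 libraries, but at unequal levels. Over the 12 tested simple epithelium genes, led by Prom1, Krt8 and Krt19, the summed level ranged from 2931 to 7907 CPM in Thra1PV/+ and from 3190 to 10290 CPM in WT. The 11 endometrial stroma genes ran the other way. Their mean log2 CPM was 7.96 in Thra1PV/+ replicate 1, 8.41 in WT replicate 1 and 8.38 in WT replicate 2, against 4.93 to 6.80 in the other 5 libraries. WT replicate 1 also stood apart in smooth muscle genes, with a mean of 10.09 log2 CPM against 5.49 to 6.53 in the other WT libraries and 2.47 to 5.65 in Thra1PV/+. In bulk libraries of this kind, fewer cells of a type and less RNA per cell cannot be told apart. Thra itself had 45.8 to 127 CPM in Thra1PV/+ and 47.4 to 110 CPM in WT. The total count of Thra cannot show a small mutation, so this does not check the genotype labels.

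Muc15 rose in Thra1PV/+ endometrium and was the single member called, where a call required at least a 2-fold difference and an adjusted p of at most 0.1. In the same test, edgeR's quasi-likelihood test, 0.924% of all 18174 tested genes were called higher in Thra1PV/+ and 0.066% were called lower. Muc13 was also higher in every mutant library than in every WT library, but it was not called. Muc1, Muc4 and Muc20 were abundant in both genotypes, ranged widely within each of them and were not called, and Muc16 was near the limit of detection. The median log2 fold change of the 6 members was 0.89, against -0.05 over all tested genes. Groups did not overlap for 2 of the 6 members, and for 6.04% of all tested genes.

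**Figure D1:**
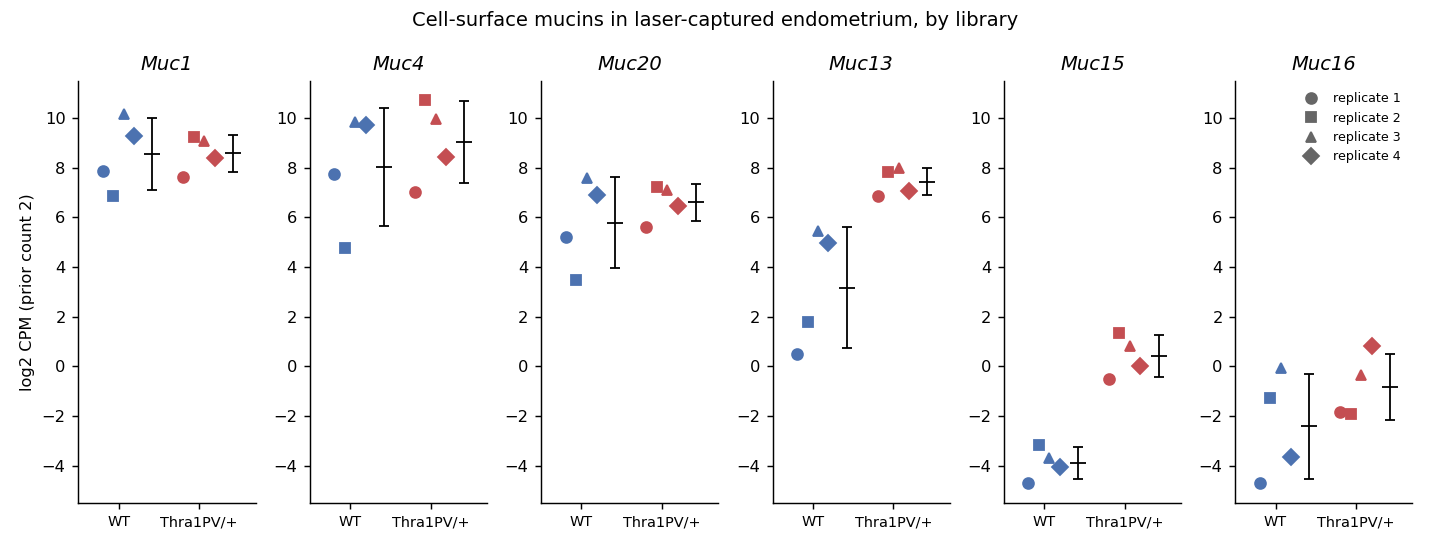
Level of each cell-surface mucin in every library as log2 CPM with a prior count of 2, with WT in blue, Thra1PV/+ in red, 1 marker shape per replicate number, and the mean ± SD of 4 libraries in black. Muc13 and Muc15 lie higher in all 4 Thra1PV/+ libraries than in any WT library, whereas the other 4 mucins overlap between genotypes.

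Compared per length in the deposited TPM values, Muc1 was the most abundant member in both genotypes, with means of 484 TPM ± 211 (SD, n = 4) in Thra1PV/+ and 536 TPM ± 368 (SD, n = 4) in WT. Muc4 followed with 373 TPM ± 329 (SD, n = 4) and 239 TPM ± 190 (SD, n = 4). In Thra1PV/+, Muc13 came next with 75.3 TPM ± 24.7 (SD, n = 4), followed by Muc20 with 53.5 TPM ± 22.2 (SD, n = 4). In WT this order was turned, with Muc20 at 42.8 TPM ± 38.3 (SD, n = 4) and Muc13 at 7.98 TPM ± 8.39 (SD, n = 4). The ranges of neighbours in this order overlapped, except that Muc20 stood clear of Muc15 in Thra1PV/+. Within a library, however, Muc13 was above Muc20 in 4 of 4 Thra1PV/+ libraries, and Muc20 was above Muc13 in 4 of 4 WT libraries. Muc15 and Muc16 were below 1.2 TPM in all 8 libraries. The deposited TPM values, once sorted, differed by at most 0.291 between libraries, as quantile normalization gives. The order above and the shares below are of these values, which need not be proportional to transcript numbers.

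Muc13 made up a larger part of the summed deposited TPM of the 6 mucins in the mutant, a share of these values and not of transcript numbers. Its share was 14.1%, 5.38%, 8.56% and 8.13% in Thra1PV/+ replicates 1 to 4, and 0.0996%, 0.721%, 1.15% and 1.17% in WT replicates 1 to 4. The lowest mutant share was above the highest WT share. The difference had a two-sided exact permutation p of 0.0286, the smallest that 4 against 4 libraries can give. The shares of all 6 mucins were tested in this way, and these p-values were not adjusted. The share of Muc1 was 53.1% ± 9.45 (SD, n = 4) in Thra1PV/+ and 69.9% ± 13.1 (SD, n = 4) in WT, with overlapping ranges and an exact permutation p of 0.0857. The sum itself did not separate the genotypes. It ranged from 369 to 1691 TPM in Thra1PV/+ and from 183 to 1513 TPM in WT.

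**Figure D2:**
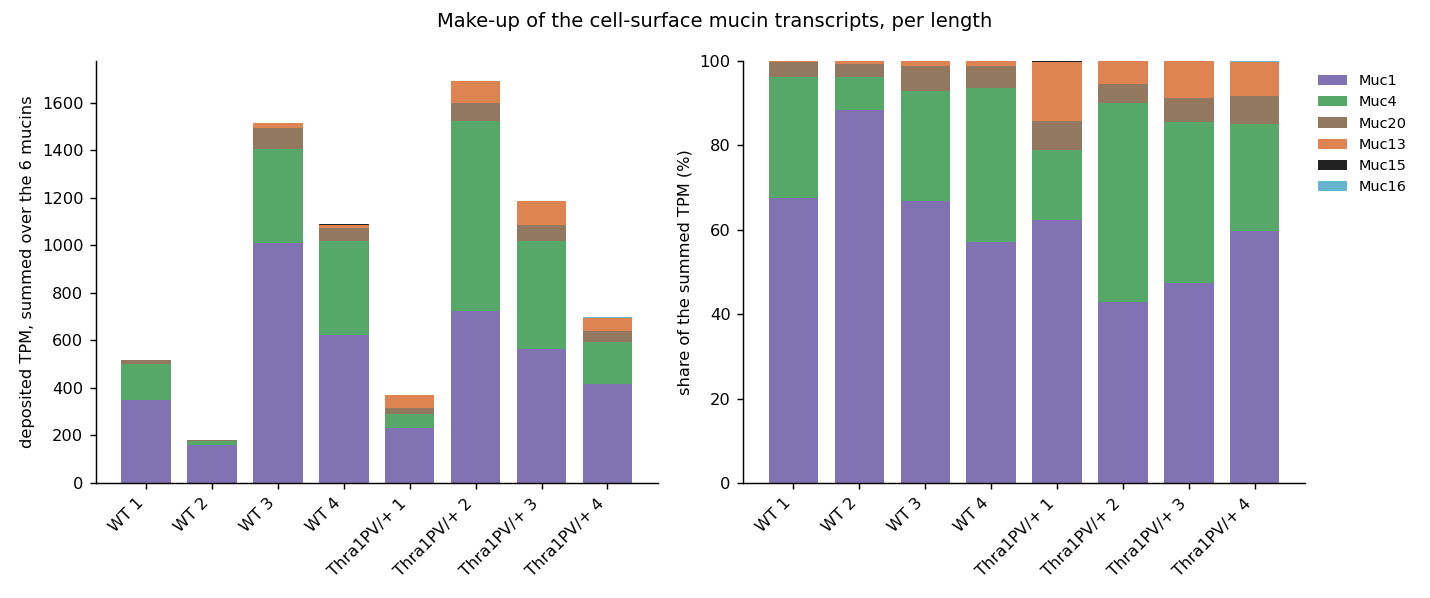
Deposited TPM of the 6 cell-surface mucins stacked for each library (left), and the same values as a share of their sum in percent (right). TPM is scaled for transcript length, and the sorted deposited values nearly agree between libraries, as quantile normalization gives. Muc1 and Muc4 fill most of each bar, the summed level is lowest in WT replicate 2 at 183 TPM, and the Muc13 segment is 5.38% or more in every Thra1PV/+ library and 1.17% or less in every WT library.

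Muc13 encodes a transmembrane mucin with EGF-like domains. It had 116, 229, 256 and 135 CPM in Thra1PV/+ replicates 1 to 4, and 1.35, 3.39, 44.4 and 31 CPM in WT replicates 1 to 4. The mutant libraries stayed within 1.14 log2 units of each other, while WT replicates 1 and 2 were far below WT replicates 3 and 4, and the groups did not overlap. The fold change was 9.19 (log2 fold change 3.20, SE 1.01), with an unadjusted p of 0.0124 in edgeR's fit over all genes and an adjusted p of 0.341. WT replicates 1 and 2 were also among the 3 libraries richest in stroma, together with Thra1PV/+ replicate 1. Without these 3 libraries, a choice made after seeing the data, the log2 fold change was 2.49 (SE 0.34) and the adjusted p in edgeR 0.0524. Muc13 thus passed in a fit that called 0.921% of genes higher. That fit kept only WT replicates 3 and 4 and Thra1PV/+ replicates 2, 3 and 4. It dropped the WT libraries lowest in Muc13, which had made most of the WT spread.

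Relative to the simple epithelium genes of the same library, Muc13 was nearly level across the mutant libraries. Its log2 CPM lay 0.88, 1.01, 0.97 and 1.48 below the mean of the simple epithelium list in Thra1PV/+ replicates 1 to 4. In WT it lay 7.17, 6.04, 3.4 and 4.02 below that mean. The difference was 4.07 on the log2 scale, with a two-sided exact permutation p of 0.0286, the smallest the design allows. This was 1 of 6 such tests, and the p was 0.0857 after Benjamini-Hochberg adjustment over the 6 mucins. When the simple epithelium level was put into the edgeR fit as a covariate, also a choice made after seeing the data, the log2 fold change was 3.78 (SE 0.62) and the adjusted p 0.0346, in a fit that called 1.51% of genes higher. On the scale relative to simple epithelium, WT replicates 3 and 4 were still above WT replicates 1 and 2.

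The call for Muc13 differed between tools. DESeq2, the tool of the submitters' processing notes, gave a log2 fold change of 3.22 and an adjusted p of 0.0135, and called 2.57% of its 22073 genes higher. Limma voom with sample quality weights gave 4.12 and an adjusted p of 0.0619, and called 1.39% of genes higher. On log2 of the deposited TPM, limma gave 3.75 with a pseudocount of 1 and 4.27 with 0.1, at adjusted p-values of 0.116 and 0.159. Muc13 was thus called by DESeq2 and voom, and not on log2 TPM or in the main edgeR fit. The estimate stayed between 2.85 and 3.98 in edgeR when any 1 library was left out, with adjusted p-values from 0.278 to 0.689.

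Muc15 is a small transmembrane mucin that was first purified from the milk fat globule membrane. It was represented by 36, 124, 85 and 55 counts in Thra1PV/+ replicates 1 to 4, and by 0, 4, 2 and 1 counts in WT replicates 1 to 4. All mutant libraries were above all WT libraries, yet even the highest reached only 2.52 CPM. The log2 fold change was 5.35 (SE 0.82), with an unadjusted p of 0.000149 and an adjusted p of 0.0304 in edgeR. As the fitted value rests on WT counts close to 0, the summed counts are also given. They were 300 in Thra1PV/+ and 7 in WT, a ratio of 42 after scaling for library size, with an exact 95% interval of 20.2 to 105 that covers counting error only.

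DESeq2 and voom with sample quality weights also called Muc15, at log2 fold changes of 5.48 and 5.43 and adjusted p-values of 2.75e-09 and 0.0174. In edgeR the call for Muc15 depended on single libraries. The adjusted p was 0.111 without Thra1PV/+ replicate 3 and 0.121 without WT replicate 4, so the call was lost in 2 of the 8 fits that left out 1 library, with log2 fold changes of 4.96 to 6.07 in all of them. Over all genes, the fits without Thra1PV/+ replicate 3 and without WT replicate 4 called 81 and 114 genes, against 180 with all libraries. Ano3, on the opposite strand, shares 61 exonic bases with Muc15 and had 0 to 9 counts, too few to be tested. Of the 31-base words of Muc13 and Muc15 transcripts, 0.381% and 0.195% also occur in transcripts of other genes, and 6.40% and 1.31% on the opposite strand of such transcripts. Relative to the simple epithelium genes, Muc15 differed by 4.12 on the log2 scale. The exact permutation p was 0.0286, and 0.0857 after Benjamini-Hochberg adjustment over the 6 mucins. With WT counts this low the size depends on the prior count, and it was 5.10 with a prior count of 0.5.

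The rise of Muc15 and the higher values of Muc13 went along with markers of squamous epithelium, of which 16 of 18 were tested. Their summed level was 3419 to 5440 CPM in Thra1PV/+ and 28.9 to 132 CPM in WT. Of the 16, 11 were called higher by edgeR, among them Krt5 and Krt13, against 0.924% of all tested genes. Leukocyte markers, 9 of 10 tested, were at 202 to 687 CPM in Thra1PV/+ and 96.9 to 218 CPM in WT. The part of these cell types in the Muc15 and Muc13 values was not tested. Smooth muscle markers, all 8 tested, were at 146 to 687 CPM in Thra1PV/+ against 573 to 13143 CPM in WT, with a median log2 fold change of -3.96 and none called by edgeR or DESeq2, although all 8 had an unadjusted p under 0.05 in edgeR. Within WT, Muc13 and the summed squamous level both ran in the order replicate 1, 2, 4 and 3 from low to high. By mean log2 CPM, however, the squamous order was replicate 1, 4, 2 and 3, at -1.59, 0.37, 0.76 and 1.20. Muc15 was lowest in replicate 1 and highest in replicate 2 of WT.

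Muc1, the best-known mucin of the uterine lumen, had 199, 611, 550 and 334 CPM in Thra1PV/+ replicates 1 to 4. It had 238, 118, 1160 and 616 CPM in WT replicates 1 to 4. The lowest and the highest library were both WT, and the mutant values lay between them. The log2 fold change was -0.33 (SE 0.67) with an adjusted p of 0.923 in edgeR. On log2 TPM, with voom weights and without WT replicate 3 the sign was positive.

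Muc4, a mucin with EGF-like domains, had 131, 1690, 990 and 350 CPM in Thra1PV/+ replicates 1 to 4. It had 217, 27.4, 925 and 851 CPM in WT replicates 1 to 4. No other member spread as widely within the mutant group, over 3.69 log2 units, and WT replicate 2 was far below all others. The groups overlapped, with a log2 fold change of 0.65 (SE 1.04) and an adjusted p of 0.897 in edgeR.

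Muc20 had 48.5, 150, 138 and 89.1 CPM in Thra1PV/+ replicates 1 to 4. It had 37.0, 11.2, 194 and 119 CPM in WT replicates 1 to 4. As for Muc1, WT held both extremes, and the log2 fold change was 0.24 (SE 0.76) with an adjusted p of 0.956 in edgeR. Muc4 and Muc20 share exonic bases on opposite strands, which hold 13.5% of the 31-base words of Muc20 transcripts and 5.19% of those of Muc4. The libraries were stranded, but whether the counting used strand is not given in the sources used here, so a small exchange of counts between Muc4 and Muc20 cannot be told apart from their own levels.

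Muc1, Muc4 and Muc20 shared their order of libraries more than any of them followed genotype. The 3 lowest libraries were Thra1PV/+ replicate 1, WT replicate 1 and WT replicate 2 for each of these genes. The same 3 libraries were the lowest in the simple epithelium list and the highest in the stroma list. Over the 8 libraries the simple epithelium mean ranged over only 1.34 log2 units, against 3.30 for Muc1, 5.94 for Muc4 and 4.11 for Muc20. After subtraction of the simple epithelium mean, Muc1 differed between genotypes by -0.16, Muc4 by 0.81 and Muc20 by 0.61 on the log2 scale, with exact permutation p-values of 0.714, 0.514 and 0.514. These differences rested on single WT libraries, as Muc4 was at -0.11 and Muc20 at 0.01 without WT replicate 2, and Muc1 at 0.20 without WT replicate 3. The spread of Muc1 over the mutant libraries fell to an SD of 0.26 (n = 4) on that scale, from 0.74 (n = 4) before, and that of Muc20 to 0.24 (n = 4) from 0.75 (n = 4), while Muc4 still had 1.15 (n = 4), from 1.64 (n = 4). In WT the SD fell from 1.46 to 0.91 for Muc1, from 2.37 to 1.86 for Muc4 and from 1.83 to 1.29 for Muc20 (n = 4 each), with WT replicate 2 at the bottom for all 3.

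**Figure D3:**
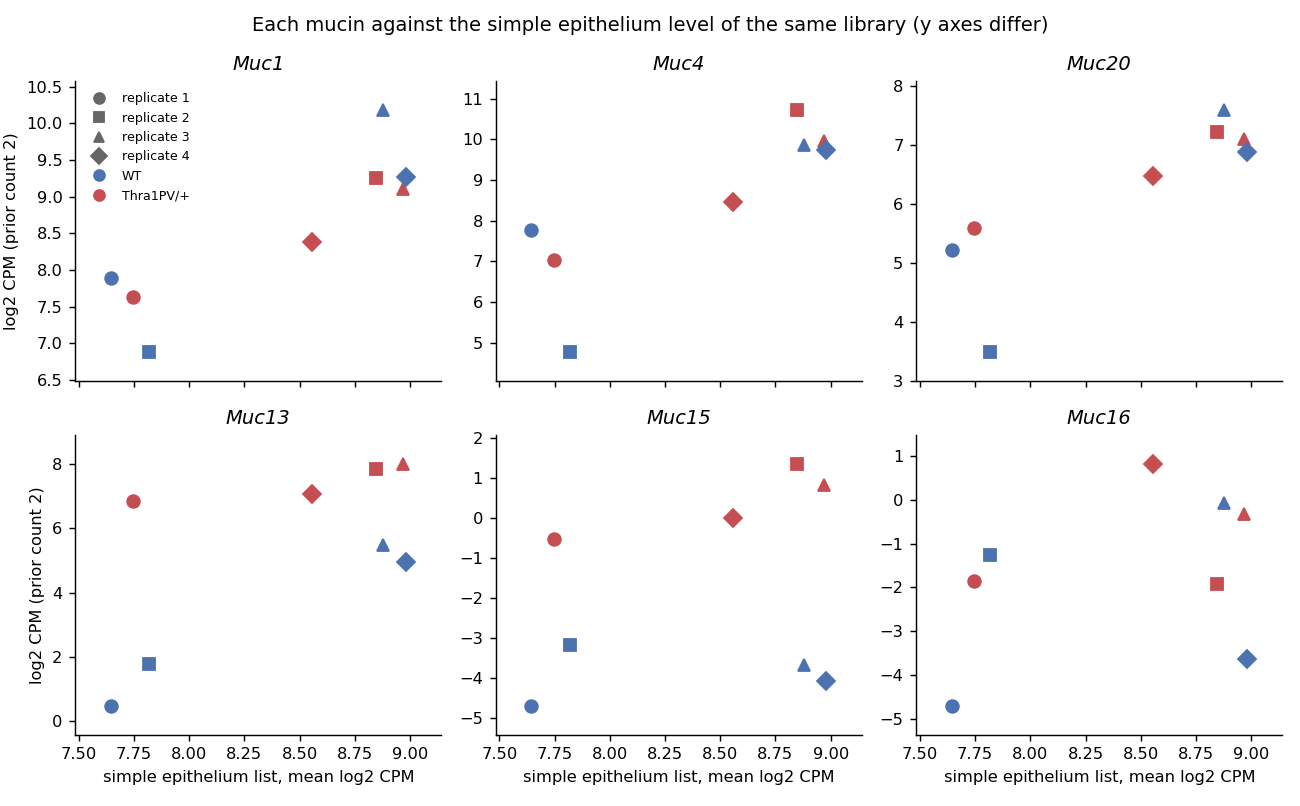
Log2 CPM of each mucin (y axes differ) against the mean log2 CPM of the 12 simple epithelium genes in the same library, with WT in blue, Thra1PV/+ in red and 1 marker shape per replicate number. Muc1, Muc4 and Muc20 are lowest in the 3 libraries with the lowest simple epithelium signal whatever the genotype, whereas Muc13 and Muc15 lie higher in Thra1PV/+ at either end of the axis.

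Muc16, the CA125 antigen, had 13, 11, 37 and 98 counts in Thra1PV/+ replicates 1 to 4, and 0, 21, 46 and 2 counts in WT replicates 1 to 4. The highest WT library was above 3 of the 4 mutant libraries. The log2 fold change was 1.13 (SE 1.21) with an adjusted p of 0.831 in edgeR. It moved to 0.28 without Thra1PV/+ replicate 4 and to 2.37 without WT replicate 3. Summed counts were 159 in Thra1PV/+ and 69 in WT, a ratio of 2.26 with an exact 95% interval of 1.69 to 3.04 for counting error only, but the libraries of 1 genotype differed from each other by more than that ratio. Its binding partner mesothelin (Msln) had too few counts to be tested.

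**Figure D4:**
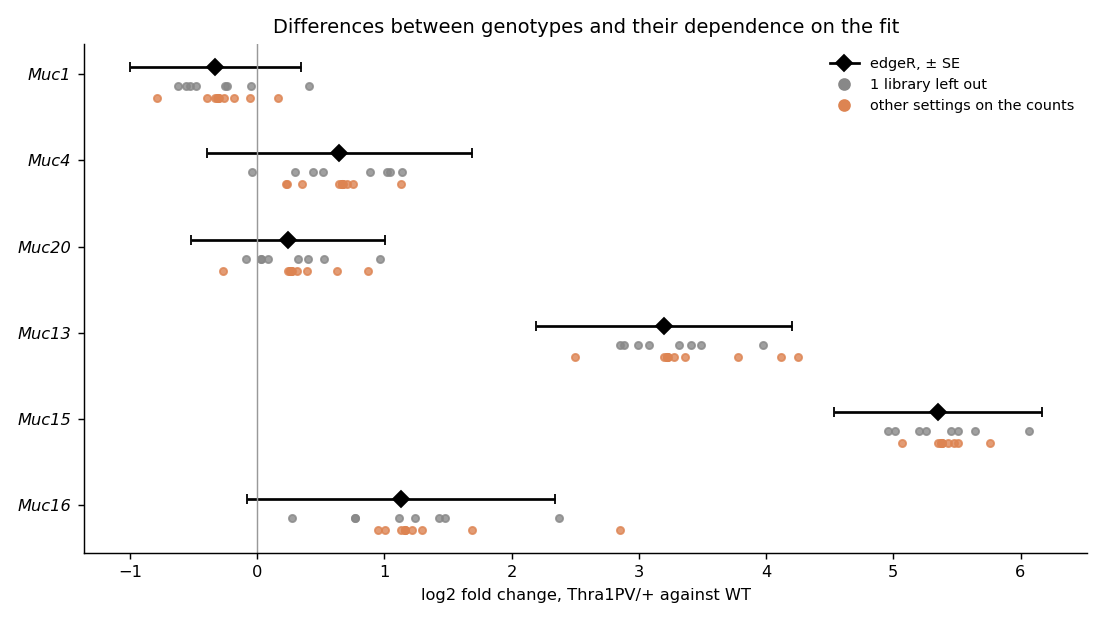
Log2 fold change of each mucin between Thra1PV/+ and WT from edgeR with its SE (black), from the 8 fits that each leave out 1 library (grey) and from other settings of the fit on the counts (orange). Muc13 and Muc15 stay above 2 on this axis in every fit drawn, while points of Muc1, Muc4 and Muc20 fall on both sides of 0.

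For each member, genes with the most similar pattern were taken by the root-mean-square difference of centred log2 CPM over the 8 libraries. For Muc1 these were Osbpl3, Xdh and Tmem173, at 0.19, 0.19 and 0.21 log2 units. Muc20 was followed most closely by Pparg (0.23), Ltf (0.24), which encodes lactotransferrin, a product of estrogen-stimulated uterine epithelium, and Bhlhe40 (0.25). For Muc4 they were Slc5a8 (0.28), Tnip3 (0.36) and Slc26a9 (0.37), 2 of which are solute carriers of epithelia. None of these 9 genes was called. Within the group itself, Muc1 and Muc20 were the closest pair, at 0.47.

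Muc13 and Muc15 had looser neighbours. Lipk (0.76), S100a14 (0.90) and Anxa8 (0.94) came nearest to Muc13, and of these S100a14 and Anxa8 were called, with log2 fold changes of 4.94 and 4.41. Rhov (0.70) and Grhl1 (0.79) were among the genes nearest to Muc15, and both were called, with log2 fold changes of 4.95 and 3.35. GRHL1 is a transcription factor of epidermal barrier genes. The distance between Muc13 and Muc15 was 1.44, and for Muc16 the nearest gene, Gm47283, was at 0.88.

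Other mucins that were counted were scarce. Of 13 further mucin genes, which include both secreted and membrane-bound ones, 10 were found by symbol and 5 were tested. Muc12, Muc17 and Muc21 were not found, so their levels are unknown. None of the 5 was called by edgeR or DESeq2, and none had an unadjusted p under 0.05 in edgeR. Muc5b, a gel-forming mucin, reached 12.1 CPM in the highest library, and Muc2, another, reached 1.34 CPM. Their median log2 fold change was 0.68. The 8 sialomucins of vessels and leukocytes had a median of -0.48, with none called by either tool. Selplg, the leukocyte ligand of P-selectin, was at 27.2 to 43.5 CPM in Thra1PV/+ and at 17.4 to 24.2 CPM in WT. Its log2 fold change of 0.70 (SE 0.20) had an unadjusted p of 0.0067 and an adjusted p of 0.266 in edgeR.

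The enzymes that build mucin-type O-glycans were expressed throughout, with a median log2 fold change of -0.11 over 29 tested identifiers. None was called by edgeR, and DESeq2 called 1 identifier of St6galnac2, in a fit that called 2.57% of all genes higher. In edgeR 6 identifiers (20.7%) had an unadjusted p under 0.05, against 9.77% of all tested genes. They had no common direction, as St3gal4 and both identifiers of St6galnac2 were higher in Thra1PV/+ and Galnt11, Galnt15 and Galnt18 lower. St6galnac2, which adds sialic acid to the core sugar, is in the table under 2 identifiers that may split its reads, at log2 fold changes of 1.13 and 1.53. The first, ENSMUSG00000057286.6, had 167 to 332 CPM in Thra1PV/+ and 51.8 to 184 CPM in WT. Adjusted p-values for the pair were 0.381 and 0.341 in edgeR. Groups did not overlap for 2 of the 29 identifiers, near the share of 6.04% over all tested genes. These were Galnt15 and Galnt18, which belong to the family that starts the chains. Both were lower in Thra1PV/+, at log2 fold changes of -1.23 and -0.49 with adjusted p-values of 0.388 and 0.341 in edgeR.

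Among proteases that shed mucins and proteins that bind them, 20 of 23 were tested and only Tff1 was called by edgeR and by DESeq2. Over all tested genes, edgeR called 0.924% higher and DESeq2 2.57%. TFF1 is a trefoil peptide secreted together with mucins. It had 29 to 987 counts in the mutant libraries and 0 to 2 counts in WT. The mutant libraries differed widely, at 7.44 CPM ± 8.28 (SD, n = 4) with a range of 0.532 to 17.3 CPM. Taking the mutant mean and a floor of 3 counts per WT library, Tff1 was at least 127-fold higher in Thra1PV/+. Without Thra1PV/+ replicate 4, the highest, this bound was 71-fold, and the lowest mutant library alone was at least 9.11-fold above the floor. The adjusted p was 0.0725 in edgeR. The sheddases Adam17, Adam10 and Mmp14 had log2 fold changes of 0.19, 0.16 and -0.05, and the receptors Erbb2 and Met, partners of MUC4 and MUC20, had -0.01 and 0.26, none of them called.

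Of 17 genes listed as possible regulators of epithelial mucin genes, edgeR called Trp63 and Gata3, both higher in Thra1PV/+. Over all tested genes, edgeR called 0.924% higher. DESeq2 called Trp63, Gata3 and Spdef higher and Klf9 lower. Of its 22073 genes, DESeq2 called 568 higher (2.57%) and 223 lower. Whether the listed genes act on these mucins was not tested. Trp63, the master regulator of stratified epithelium and also a squamous marker, was at 53.2 to 93.5 CPM in Thra1PV/+ and 0.458 to 2.04 CPM in WT, a log2 fold change of 6.11 (SE 0.53) with an adjusted p of 0.00333 in edgeR. Gata3 was at 9.47 to 12.9 CPM against 1.11 to 2.63 CPM, with a log2 fold change of 2.51 (SE 0.34) and an adjusted p of 0.0192. Klf9, a target of thyroid hormone receptors and a partner of the progesterone receptor, had 3.59 to 16.1 CPM in Thra1PV/+ and 10.7 to 54.1 CPM in WT, with a log2 fold change of -2.02 (SE 0.65) and an adjusted p of 0.351 in edgeR against 0.0524 in DESeq2. Spdef, a factor of secretory cells, did not overlap between genotypes at a log2 fold change of 1.88 (SE 0.61) and adjusted p-values of 0.350 in edgeR and 0.0389 in DESeq2. The hormone receptors Esr1 and Pgr had log2 fold changes of -0.21 and -0.25 and were not called. The median over the 17 genes was 0.12.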

How the data were processed

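RNA of laser-captured endometrium was sequenced in bulk, with 4 libraries per genotype. The authors used Trimmomatic for trimming and Salmon with mm10 for quantification, and deposited estimated counts (no normalization) and TPM values for each gene. The libraries were stranded, and tool versions and the strand setting of the counting are not given in the sources used here. The sorted TPM values deposited differed by at most 0.291 between libraries, as quantile normalization gives. 1 column of the TPM table that belongs to no sample was not used.

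Estimated counts were rounded to whole numbers, filtered with filterByExpr (minimum count 10, total 15; 18174 of 52325 genes kept), scaled by TMM and tested with edgeR 4.0.16 (R 4.3.3, limma 3.58.1). Benjamini-Hochberg adjustment was over all tested genes, and calls needed a fold change of 2 and an adjusted p of 0.1. DESeq2 1.42.0 was an alternative. Fits were first tested on simulated data. Library totals were 48791602 to 59818887. Identifiers without a symbol held at most 0.00897% of counts. The study gives 4 mice per genotype for these libraries, and the labels number them as replicates without naming the animals. Exact permutation tests (SciPy 1.17.1) used all 70 arrangements.

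Named genes were the 6 mucins, Thra, called genes and up to 3 genes of smallest p with up to 2 at either end of fold change per mucin-related list, leading markers, and the 3 nearest patterns per mucin, of which 1 is not reported here. Erbb2, Met, Adam17, Adam10, Mmp14, Esr1, Pgr, Msln and Ano3 were named for their roles or position after their values were seen. Members and lists were chosen with earlier results of these data known.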

Additional observations from a re-analysis of the deposited data

How the results depend on the processing

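The number of genes called over all genes, 180, moved to 791 with DESeq2, 311 with voom weights, 335 with the simple epithelium level as a covariate, 81 with at least 10 counts in every library, 82 with the replicate block, 119 at an adjusted p of 0.05 and 1775 at an unadjusted p under 0.05. It was 81 to 167 with 1 library left out. Of the 6 mucins, 2 (Muc13 and Muc15) were called with DESeq2, with voom weights, with the covariate, without the 3 stroma-rich libraries and at an unadjusted p under 0.05. The count was 0 on log2 TPM with a pseudocount of 1 and with at least 10 counts in every library, which removes Muc15 from the test, and 0 to 1 with 1 library left out. The covariate and the removal of 3 libraries were chosen after seeing the data. DESeq2 called 1 O-glycosylation enzyme instead of 0, and 4 genes of the list of possible regulators instead of 2.

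The log2 fold change of Muc13 was 3.22 with DESeq2, 4.12 with voom, 2.49 without the 3 libraries and 3.78 with the covariate, each past the threshold, and 3.75 and 4.27 on log2 TPM with a pseudocount of 1 and 0.1 and 4.25 with the replicate block, none of them past it. Muc15 was at 0.64 on log2 TPM with a pseudocount of 1, a scale on which its levels are mostly below the pseudocount, and at 4.96 to 6.07 with 1 library left out. Muc1 turned positive with voom (0.17) and on log2 TPM with a pseudocount of 1 (0.034) or 0.1 (0.035), and ran from -0.62 to 0.41 with 1 library left out. Muc4 ran from -0.044 to 1.14 and Muc20 from -0.086 to 0.96, and Muc20 was at -0.27 without the 3 libraries. Relative to Krt8, Krt18 and Epcam alone, Muc1 was at 0.11. Relative to the simple epithelium list, with 1 library left out, Muc1 ran from -0.55 to 0.20, Muc4 from -0.11 to 1.23 and Muc20 from 0.01 to 1.03. The cause of these changes was not tested. Other normalizations, the robust fit and the looser filter changed no call of a mucin.

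Replicate numbers were not treated as pairs in the main fit. The correlations of deviations between libraries of the same number were 0.27, -0.44, 0.34 and -0.16 for numbers 1 to 4. Libraries of unlike number were not compared, so these values cannot exclude a pairing or a shared batch. With the replicate block, Muc15 kept its call at an adjusted p of 0.0662, and Muc13 was at 0.310. Leaving out a library gives a smallest exact p of 0.0571, and the paired sign-flip one of 0.125. Muc15 and Muc16 are limited by depth, with at most 124 counts in a library.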
